A study of Homo sapiens with 8 samples.

Results

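The genes described here were 5 small heat shock proteins (HSPB1, CRYAB, HSPB6, HSPB7 and HSPB8) and 5 BAG co-chaperones (BAG1, BAG2, BAG3, BAG4 and BAG5), taken by symbol from a table of 24598 genes. The cells were CCD-1077Sk, a fibroblast line from normal human skin cultured beyond passage 8, and RNA was sequenced after 6 h of treatment. The 8 libraries formed 4 groups of 2: TGFB1 with 500 nM celastrol, 500 nM celastrol alone with BSA and citric acid, TGFB1 alone with DMSO, and a vehicle control of BSA, citric acid and DMSO. TGFB1 is the cytokine most used to activate fibroblasts in culture, and no dose of it was found in the labels. Celastrol is a triterpenoid from Tripterygium wilfordii that is known to induce the heat shock response. All 4 groups came from this 1 cell line, so the values describe 1 genetic background. No label ties the replicates to separate cultures, and a p-value here therefore measures only how these libraries spread, which may be technical.

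Small heat shock proteins are chaperones without ATPase activity that hold unfolding proteins in large oligomers until other chaperones refold them. BAG proteins bind the ATPase domain of HSP70 through a shared BAG domain and release its nucleotide, which couples the client to refolding or degradation. BAG3 also binds small heat shock proteins, above all HSPB8, and the BAG3, HSPB8 and HSP70 complex directs misfolded and mechanically damaged proteins to autophagy. Several of these genes are known targets of heat shock factor 1 (HSF1), which binds inverted repeats of the pentamer nGAAn.

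The upstream sequences of 4 members are shown because these genes include the 3 with a promoter entry that celastrol raised without TGFB1 (BAG3, HSPB8 and HSPB1) and the gene that TGFB1 lowered (BAG2). They are the 250 bases before the transcription start in RefSeq, build GRCh38.p14, 5′ to 3′ on the plus strand, from chr10:119651130-119651379 (BAG3), chr12:119178681-119178930 (HSPB8), chr7:76302423-76302672 (HSPB1) and chr6:57172076-57172325 (BAG2). The RefSeq start of HSPB8 lies inside the span that the deposited table gives for the gene. The same holds for the starts of HSPB6, HSPB7, BAG1 and BAG5, whose windows were scanned but are not shown. Capitals mark matches to GAANNTTC, which is 2 pentamers head to head and reads the same on both strands.
BAG3: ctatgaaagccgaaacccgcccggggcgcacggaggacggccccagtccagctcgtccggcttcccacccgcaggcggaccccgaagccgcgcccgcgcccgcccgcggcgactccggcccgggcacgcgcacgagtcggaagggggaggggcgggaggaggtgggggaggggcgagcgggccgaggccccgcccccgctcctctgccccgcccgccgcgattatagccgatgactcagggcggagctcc
HSPB8: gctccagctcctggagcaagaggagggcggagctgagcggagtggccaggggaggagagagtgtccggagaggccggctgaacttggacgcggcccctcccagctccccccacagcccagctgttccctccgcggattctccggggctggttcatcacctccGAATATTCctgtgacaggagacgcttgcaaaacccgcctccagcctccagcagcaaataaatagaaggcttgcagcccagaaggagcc
HSPB1: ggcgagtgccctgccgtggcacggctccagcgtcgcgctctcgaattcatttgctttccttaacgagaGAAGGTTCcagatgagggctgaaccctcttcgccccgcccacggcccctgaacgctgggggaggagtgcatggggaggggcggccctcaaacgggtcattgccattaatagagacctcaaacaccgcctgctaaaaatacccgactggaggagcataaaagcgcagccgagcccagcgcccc
BAG2: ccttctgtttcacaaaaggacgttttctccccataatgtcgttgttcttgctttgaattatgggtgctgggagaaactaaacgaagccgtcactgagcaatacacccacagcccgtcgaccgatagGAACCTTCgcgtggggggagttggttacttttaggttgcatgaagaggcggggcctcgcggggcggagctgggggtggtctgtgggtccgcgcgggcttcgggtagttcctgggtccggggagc
In the 300-base windows that run to 50 bases after the start, GAANNTTC occurred in 6.77% of 35116 RefSeq promoters and TTCNNGAA, the tail-to-tail pair, in 7.74%. HSPB1 held GAANNTTC at -182 to -175, counted from the start. HSPB8 held it at -88 to -81 and again after the start at 5 to 12, and BAG2 at -124 to -117. HSPB6 held it at -196 to -189 together with TTCNNGAA at -210 to -203. Neither pair was found in the windows of BAG3, BAG1, BAG5 or HSPB7, and the 3-pentamer forms GAANNTTCNNGAA and TTCNNGAANNTTC, present in 0.49% of promoters, were found in none of the 9 windows. Of the 10 members, 8 had a promoter entry; CRYAB and BAG4 are named only. These matches describe the letters of the windows and no binding was measured.

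The deposited values are estimated reads per gene divided by 1 size factor per library, called normalized reads here, and all 10 members passed the filter for testing. As estimated from the values, between 20717595 and 42518597 reads per library fell on genes. The members drew on between 147.0 estimated reads (HSPB6) and 13845 (BAG3) in a library. Differences were tested with limma on log2(value + 1), with calls at a Benjamini-Hochberg adjusted p of 0.05 over 22866 genes; with 2 libraries against 2, an exact permutation test of a single gene cannot go below 0.333. The 4 groups are compared in pairs that share libraries, so the comparisons are not independent of each other. All 10 fibroblast markers (such as COL1A1, PDGFRA and VIM) were present, with a summed level of 381771 to 444429 normalized reads with TGFB1 and celastrol, 400604 to 475528 with celastrol alone, 554797 to 674411 with TGFB1 alone, and 471340 to 495880 with vehicle. Of 7 muscle markers, 5 were measured, and MYOD1 and MYOG were not among the 24598 genes. The 5 had sums of 166 to 212 with TGFB1 and celastrol, 185 to 190.3 with celastrol alone, 80.5 to 101 with TGFB1 alone, and 53.4 to 58.8 with vehicle. Of 5 endothelial markers, 4 were measured, with sums of 360.5 to 465, 354 to 370.5, 52.7 to 98.9 and 52.8 to 92.5 in the same order of groups. Of 5 melanocyte markers, 3 were measured, with sums of 1270.0 to 1312, 1312.5 to 1365, 222 to 236 and 1034 to 1074. Of 5 immune markers, 4 were measured, with sums of 385 to 525, 402 to 488, 311 to 319.9 and 245 to 369. The keratinocyte list summed to between 880.5 and 1072 over all libraries. MYH1 and TP63 were at 0 in the 4 libraries without celastrol, and PECAM1 in 3 of them. The listed markers KRT5, KRT14, KRT1, CDH5, TYR, DCT and CD3E were not among the 24598 genes. Single genes carried some of these sums. MITF, most of the melanocyte sum, had 222 and 211 normalized reads with TGFB1 alone, 1026 and 1063 with vehicle, and 1174 to 1260 with celastrol. PMEL had 8.75 to 20.6 over all libraries, and MLANA 84.8 to 124 with celastrol and at most 1.23 without. CD68 made up most of the immune sum and KRT10 most of the keratinocyte sum. The muscle, endothelial, melanocyte and immune sums were higher with celastrol than in the groups without it that were compared. Between TGFB1 alone and vehicle the endothelial and immune sums overlapped, while the muscle sum was higher and the melanocyte sum lower with TGFB1. The part of these sums in the results below was not tested. In bulk RNA, fewer cells of a type and less RNA per cell cannot be told apart.

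Celastrol raised BAG3, HSPB8, CRYAB and HSPB1 both without and with TGFB1, and lowered BAG5 in both settings. In cells treated with TGFB1 it also raised BAG2 and lowered HSPB7 and BAG1. For celastrol alone against vehicle, 4 of 10 members were called higher and 1 lower, beside 33.8% and 21.3% of all genes tested. For TGFB1 and celastrol against TGFB1 alone, 5 were called higher and 3 lower, beside 37.5% and 25.9% of all genes tested. Counts this close to the background are no result about the members as a set. Groups whose libraries did not overlap were also common over all genes tested. Their share was 80.7% for TGFB1 and celastrol against TGFB1, 78.3% for celastrol against vehicle and 57.6% for TGFB1 against vehicle. The median log2 difference over the 10 members was 0.18 against vehicle and 0.45 against TGFB1. Over all genes tested it was 0.083 and 0.12. Over the 16092 genes with at least 50 normalized reads in 2 or more libraries it was -0.030 and -0.056. Of those 16092 genes, 4619 were called higher and 4351 lower against vehicle, and 4990 higher and 5472 lower against TGFB1. Of all calls against vehicle, 61.4% were higher as deposited, 54.6% with a common total and 47.5% with median centring, which left the members' calls at 4 and 1.

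**Figure D1:**
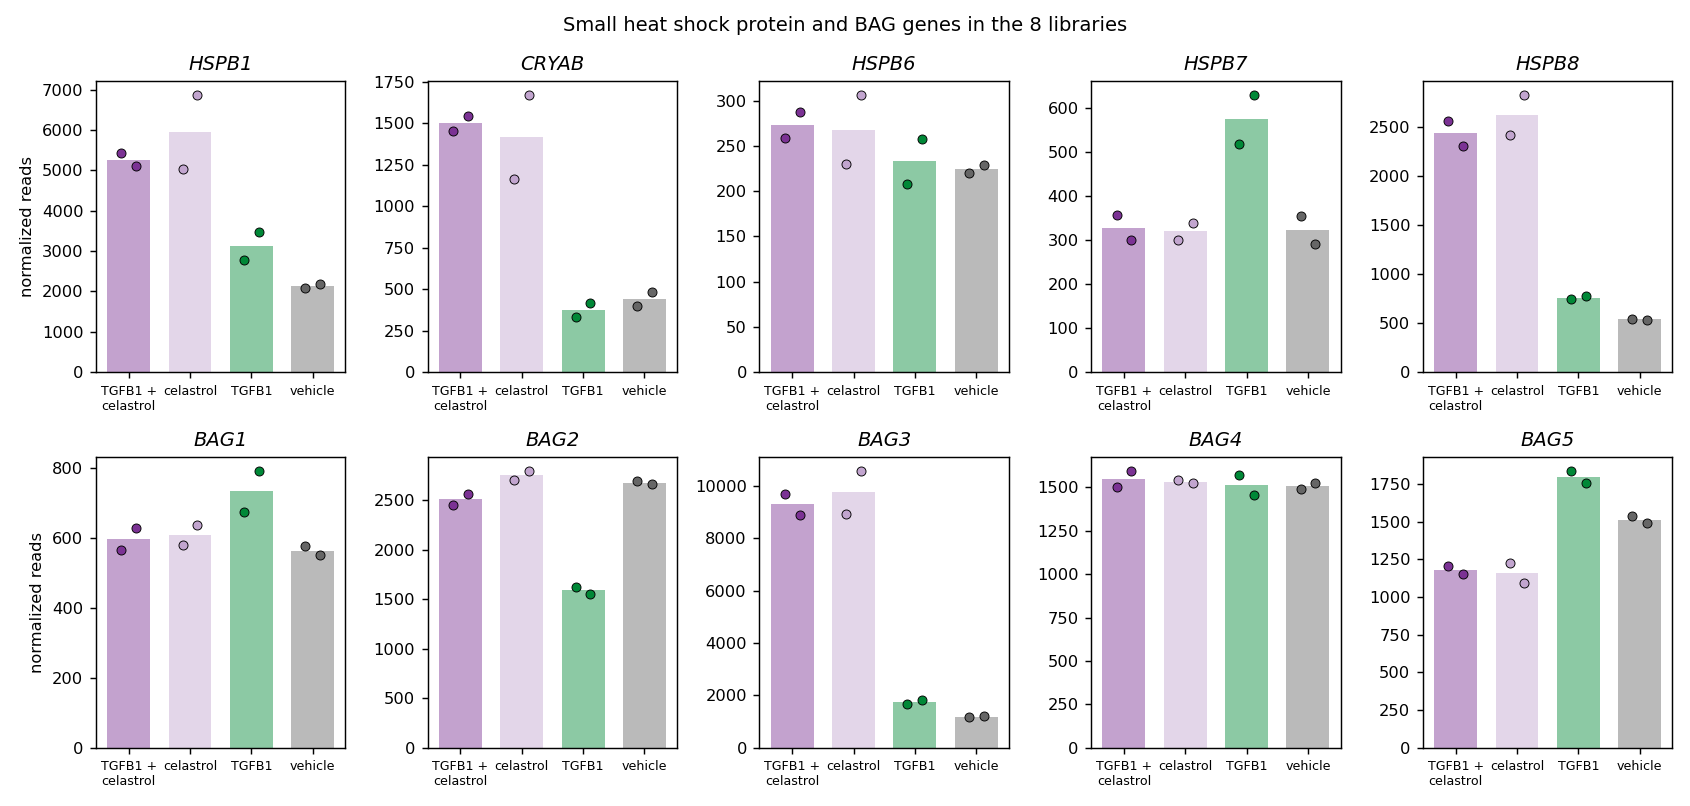
Normalized reads of each member in each of the 8 libraries, with 1 panel per gene and its own vertical axis that starts at 0; points are libraries and bars are group means, from TGFB1 and celastrol on the left to vehicle on the right. BAG3, HSPB8, CRYAB and HSPB1 sit higher in the 4 libraries with celastrol than in the 4 without, BAG2 is low with TGFB1 alone, and HSPB7 is high there.

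BAG3, the stress-inducible BAG protein and partner of HSPB8, lies on chromosome 10 (hg38, 119651380 to 119677819, plus strand). It had 9706 and 8895 normalized reads with TGFB1 and celastrol, 8936 and 10591 with celastrol alone, 1667 and 1834 with TGFB1 alone, and 1158 and 1209 with vehicle. The 4 libraries with celastrol lay far above the other 4, and both TGFB1 libraries lay above both vehicle libraries. Celastrol raised BAG3 8.21-fold against vehicle (log2 difference 3.04, SE 0.0904, adjusted p = 1.61e-07) and 5.31-fold against TGFB1 (2.41, SE 0.0904, adjusted p = 3.9e-07). Among the 14739 genes whose mean reached 50 normalized reads, it held rank 517 from the highest log2 difference against vehicle and rank 798 against TGFB1. BAG3 made up 60.0% to 62.9% of the normalized reads of the 5 BAG genes with TGFB1 and celastrol, 59.6% to 63.6% with celastrol alone, 22.6% to 24.8% with TGFB1 alone, and 15.6% to 16.3% with vehicle; these are shares of reads, not corrected for length.

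HSPB8, the small heat shock protein that binds BAG3, lies on chromosome 12 (119171555 to 119224855, plus strand). Its normalized reads were 2564 and 2304 with TGFB1 and celastrol, 2419 and 2828 with celastrol alone, 742 and 777 with TGFB1 alone, and 543 and 533 with vehicle. As for BAG3, no library with celastrol overlapped any without it, and the TGFB1 libraries lay above the vehicle libraries. The rise with celastrol was 4.85-fold against vehicle (log2 difference 2.28, SE 0.0886, adjusted p = 5.2e-07) and 3.20-fold against TGFB1 (1.68, SE 0.0886, adjusted p = 1.63e-06).

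CRYAB, or alpha B-crystallin, a chaperone of desmin and other intermediate filaments, lies on chromosome 11 (111908564 to 111923722, minus strand). It had 1455 and 1545 normalized reads with TGFB1 and celastrol, 1166 and 1671 with celastrol alone, 332 and 419 with TGFB1 alone, and 399 and 484 with vehicle. The libraries with celastrol lay above all others, while those with TGFB1 alone overlapped those with vehicle. CRYAB rose 4.01-fold against TGFB1 (log2 difference 2.00, SE 0.178, adjusted p = 2.33e-05) and 3.17-fold against vehicle (1.67, SE 0.178, adjusted p = 8.36e-05). Its exons share 626 bases with HSPB2 and 548 with the readthrough gene HSPB2-C11orf52, both on the opposite strand in GENCODE release 29. Since no label gives the use of strand in counting, reads of overlapping genes cannot be told apart. HSPB2 was the weaker of the pair, with 81.7 and 121 normalized reads with TGFB1 and celastrol, 60.8 and 105 with celastrol alone, 28.2 and 35.6 with TGFB1 alone, and 53.1 and 64.2 with vehicle.

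HSPB1 (HSP27), a regulator of actin filaments and the small heat shock protein with the most reads here, lies on chromosome 7 (76302673 to 76304295, plus strand). It had 5426 and 5107 normalized reads with TGFB1 and celastrol, 5028 and 6874 with celastrol alone, 2771 and 3465 with TGFB1 alone, and 2095 and 2194 with vehicle. The groups with celastrol did not overlap those without, and celastrol alone spread widest, at 5951 ± 1305 (SD, n = 2). HSPB1 rose 2.74-fold against vehicle (log2 difference 1.46, SE 0.146, adjusted p = 5.86e-05) and 1.70-fold against TGFB1 (0.76, SE 0.146, adjusted p = 0.00175). The processed pseudogenes HSPB1P1 and HSPB1P2 ranged over 79.0 to 251 and 9.93 to 33.4 normalized reads, and reads could be split between them and HSPB1.

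HSPB6 and HSPB7, small heat shock proteins best known from heart and skeletal muscle, did not share this rise. HSPB6 (chromosome 19, 35754566 to 35758079, minus strand) had 259 and 287 normalized reads with TGFB1 and celastrol, 229.6 and 306 with celastrol alone, 208 and 258 with TGFB1 alone, and 220.1 and 229 with vehicle. Its groups lay close together, although the libraries with celastrol lay just above those they were compared with. The log2 difference was 0.23 against TGFB1 (95% interval -0.15 to 0.62, adjusted p = 0.248) and 0.24 against vehicle (-0.14 to 0.62, adjusted p = 0.254). The intervals include 0 and also rises of up to about 0.62. HSPB7 (chromosome 1, 16014028 to 16019594, minus strand) had 357 and 299 normalized reads with TGFB1 and celastrol, 301 and 339 with celastrol alone, 519.8 and 630.5 with TGFB1 alone, and 355 and 292 with vehicle. TGFB1 alone stood above the other 3 groups, which overlapped each other. HSPB7 fell with celastrol in TGFB1-treated cells (log2 difference -0.81, SE 0.148, adjusted p = 0.00143) but was not called against vehicle (-0.01, 95% interval -0.35 to 0.33, adjusted p = 0.958).

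**Figure D2:**
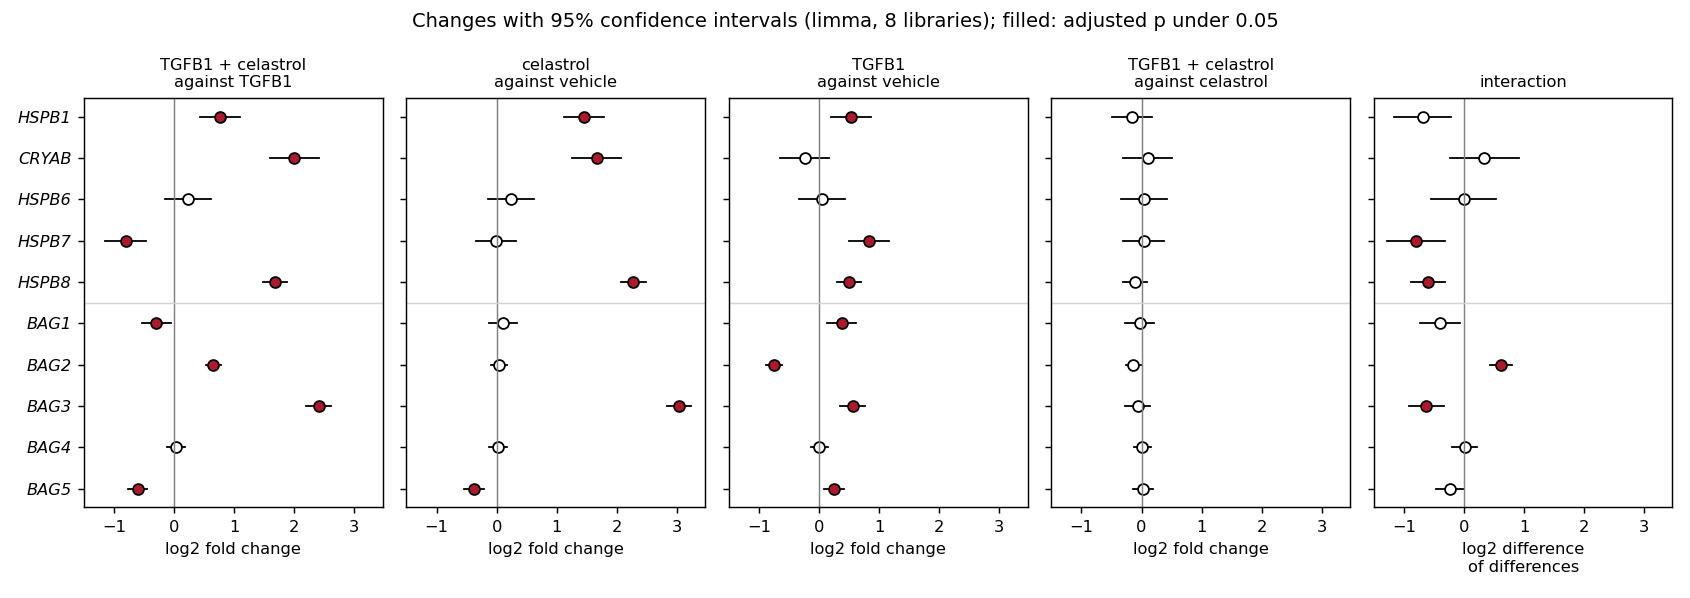
Log2 differences of the 10 members in the 4 pairwise comparisons and in the interaction (1 panel each), with 95% confidence intervals from limma; filled points passed an adjusted p of 0.05 and open points did not, and the line at 0 marks no difference. BAG3, HSPB8, CRYAB and HSPB1 lie to the right with celastrol in both comparisons, whereas all 10 points are open for TGFB1 and celastrol against celastrol alone.

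The remaining BAG genes followed different courses. BAG2, an inhibitor of the ubiquitin ligase CHIP (STUB1), lies on chromosome 6 (57172326 to 57189833, plus strand) and had 2447 and 2563 normalized reads with TGFB1 and celastrol, 2702 and 2796 with celastrol alone, 1626 and 1555 with TGFB1 alone, and 2688 and 2660.2 with vehicle. The TGFB1 libraries stood below all others. Celastrol raised BAG2 1.58-fold in TGFB1-treated cells (log2 difference 0.66, SE 0.0565, adjusted p = 1.97e-05), while against vehicle the difference was 0.04 (95% interval -0.09 to 0.17, adjusted p = 0.584). Its exons share 2842 bases with RAB23 and 97 with ZNF451-AS1 on the opposite strand; with celastrol in TGFB1-treated cells, RAB23 fell (-0.28, adjusted p = 0.0172) and ZNF451-AS1 rose (2.72, adjusted p = 6.89e-05). ZNF451-AS1 had 119.9 and 116 normalized reads with TGFB1 and celastrol, against 16.9 and 17.2 with TGFB1 alone.

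BAG5, which carries several BAG domains and inhibits the ligase parkin, lies on chromosome 14 (103556544 to 103562831, minus strand). It had 1204 and 1156 normalized reads with TGFB1 and celastrol, 1229 and 1096 with celastrol alone, 1840.3 and 1761 with TGFB1 alone, and 1536 and 1490.0 with vehicle. The libraries with celastrol were below all libraries without it. BAG5 fell against TGFB1 (log2 difference -0.61, SE 0.0720, adjusted p = 0.000109) and against vehicle (-0.38, SE 0.0720, adjusted p = 0.00206). It shares 72 exon bases with KLC1 on the opposite strand, and KLC1 fell in the same comparisons, by 1.16 (adjusted p = 2.6e-06) and 1.00 (adjusted p = 7.18e-06).

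BAG1, the founding BAG protein and a binding partner of BCL2, lies on chromosome 9 (33247820 to 33264720, minus strand). It had 564 and 626 normalized reads with TGFB1 and celastrol, 579 and 637 with celastrol alone, 672 and 792 with TGFB1 alone, and 575 and 550.0 with vehicle. It fell with celastrol in TGFB1-treated cells (log2 difference -0.30, SE 0.104, adjusted p = 0.0338) and was not called against vehicle (0.11, 95% interval -0.13 to 0.35, adjusted p = 0.4). The fall was lost in 6 of 18 alternative settings, among them the fits without TGFB1 and celastrol replicate 1 (-0.22, adjusted p = 0.187), without TGFB1 replicate 2 (-0.18, adjusted p = 0.198) and without vehicle replicate 1 (-0.30, adjusted p = 0.0501). Over all 18, its adjusted p ran from 0.000784 to 0.262.

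BAG4, or SODD, known as a binding partner of TNF receptor 1, lies on chromosome 8 (38176533 to 38213301, plus strand) and was the steadiest member. It had 1502 and 1596 normalized reads with TGFB1 and celastrol, 1541 and 1522 with celastrol alone, 1570.2 and 1458 with TGFB1 alone, and 1488 and 1526 with vehicle. The libraries of all 4 groups overlapped. The log2 difference was 0.03 against TGFB1 (95% interval -0.11 to 0.18, adjusted p = 0.673) and 0.02 against vehicle (-0.12 to 0.17, adjusted p = 0.782). Its sign depended on the scaling: scaled to a common total, BAG4 was called higher against TGFB1 (0.19, adjusted p = 0.0387), and centred on the median gene it was called lower (-0.26, adjusted p = 0.0106). The exons of BAG4 share 198 bases with LSM1 on the opposite strand, where reads cannot be told apart. With celastrol, LSM1 was not called against TGFB1 (-0.02, adjusted p = 0.844) or vehicle (0.09, adjusted p = 0.246).

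TGFB1 alone raised HSPB7, BAG3, HSPB1, HSPB8, BAG1 and BAG5 against vehicle, and lowered BAG2. Of all genes tested, 12.8% were called higher and 10.6% lower. Of the 16092 genes with at least 50 normalized reads in 2 or more libraries, 3011 were called higher and 2195 lower. Beside these shares, 6 of 10 members were called higher and 1 lower. HSPB7 had the largest difference (log2 0.83, SE 0.148, adjusted p = 0.00467), followed by BAG3 (0.56, SE 0.0904, adjusted p = 0.00275), HSPB1 (0.53, SE 0.146, adjusted p = 0.0313), HSPB8 (0.50, SE 0.0886, adjusted p = 0.00466), BAG1 (0.37, SE 0.104, adjusted p = 0.0323) and BAG5 (0.25, SE 0.0720, adjusted p = 0.0368). BAG2 fell by 0.75 (SE 0.0565, adjusted p = 4.57e-05). CRYAB (-0.24, adjusted p = 0.397), HSPB6 (0.05, adjusted p = 0.908) and BAG4 (0.01, adjusted p = 0.996) were not called. Scaling to a common total shifted the median of all genes by -0.21 in this comparison and left 3 members higher (HSPB7, BAG3 and HSPB8) and 2 lower (BAG2, and BAG4 at -0.22 with an adjusted p of 0.042). It also moved the share of all calls that were higher, which was 54.8% as deposited, 20.8% with a common total and 72.9% with median centring. A fit on the 4 libraries compared left HSPB8 and BAG3 higher and BAG2 lower. BAG2, BAG3 and HSPB8 were called in all 18 alternatives. HSPB1, BAG1 and BAG5 lost the call in 8, 10 and 9 of them, with adjusted p of up to 0.147, 0.304 and 0.858; leaving out either TGFB1 and celastrol replicate, TGFB1 replicate 2 or either vehicle replicate ended the call of all 3, at adjusted p between 0.0518 and 0.168. BAG1 was also lost without celastrol replicate 1 (adjusted p = 0.0503) or 2 (0.0505), and BAG5 without TGFB1 replicate 1 (0.127).

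With celastrol in both groups, adding TGFB1 gave no member that passed the test. The log2 differences for TGFB1 and celastrol against celastrol alone ran from -0.16 (HSPB1, 95% interval -0.49 to 0.17) to 0.10 (CRYAB, -0.31 to 0.51). By limma 0 of 10 members were called, beside 0.00437% of all genes tested in each direction (1 of 22866 higher and 1 lower), and 868 genes had an unadjusted p under 0.05. The 1 member among those was BAG2, at -0.13 (95% interval -0.26 to -0.0049, unadjusted p = 0.0436, adjusted p = 1). The interval for BAG3 was -0.27 to 0.14 and that for HSPB8 -0.31 to 0.10, so rises with TGFB1 of the size seen without celastrol lay outside both.

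**Figure D3:**
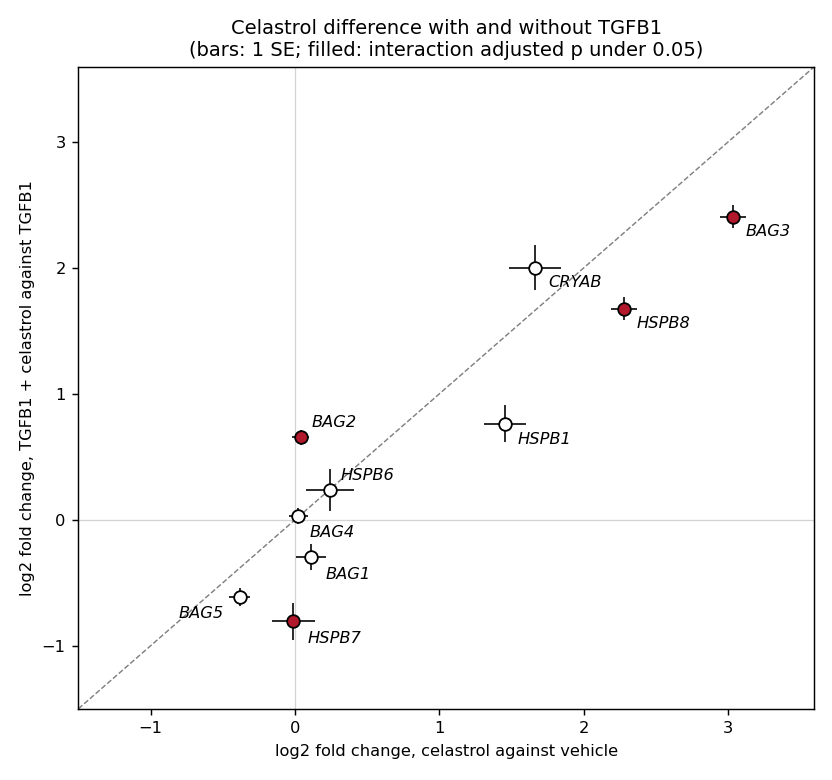
Each member's log2 difference with celastrol in TGFB1-treated cells (vertical axis) against that without TGFB1 (horizontal axis), with bars of 1 SE; the diagonal marks equal differences, and filled points passed the interaction test at an adjusted p of 0.05. BAG3, HSPB8 and HSPB7 lie below the diagonal and BAG2 above it.

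The interaction tests whether the celastrol difference was the same with and without TGFB1. It was called for 4 of 10 members, with 1 higher (BAG2) and 3 lower (HSPB7, BAG3 and HSPB8), beside 4.36% and 6.89% of all genes tested. Of the 16092 genes with at least 50 normalized reads in 2 or more libraries, 17.8% were called, 1065 higher and 1798 lower. The celastrol difference was smaller with TGFB1 by 0.63 for BAG3 (interaction -0.63, SE 0.128, adjusted p = 0.0163) and by 0.60 for HSPB8 (-0.60, SE 0.125, adjusted p = 0.018). For both genes the groups with celastrol overlapped each other, while TGFB1 alone lay above vehicle. BAG3 averaged 9300 ± 574 normalized reads with TGFB1 and celastrol, 9763 ± 1170.2 with celastrol alone, 1750.2 ± 118 with TGFB1 alone and 1184 ± 36.2 with vehicle (SD, n = 2 each). For BAG2 the interaction was 0.62 (SE 0.0799, adjusted p = 0.00194): its means were 2505 ± 81.8 with TGFB1 and celastrol, 2749 ± 67.1 with celastrol alone, 1590.2 ± 50.1 with TGFB1 alone and 2674 ± 19.4 with vehicle (SD, n = 2 each). HSPB7 mirrored it, at -0.80 (SE 0.210, adjusted p = 0.0451), with 328 ± 40.7, 319.9 ± 27.2, 575 ± 78.3 and 323 ± 45.0 in the same order. HSPB1, at -0.69, missed the threshold (adjusted p = 0.0685), as did BAG1 at -0.41 (adjusted p = 0.122). HSPB1 was called in 6 of the 17 alternatives, with adjusted p from 0.017 to 0.232, and BAG1 in 1 (median centring, adjusted p = 0.0397). The intervals of CRYAB (-0.24 to 0.92), HSPB6 (-0.54 to 0.53), BAG4 (-0.20 to 0.22) and BAG5 (-0.46 to 0.0050) included 0. BAG2 was called in all 17 alternatives to this fit. The calls of BAG3 and HSPB8 were each lost in 6 and that of HSPB7 in 8, with adjusted p of up to 0.0997, 0.0947 and 0.177. Leaving out 1 library ended the BAG3 call for TGFB1 and celastrol replicate 1 (adjusted p = 0.0508) or 2 (0.0964), celastrol replicate 2 (0.0594) and vehicle replicate 1 (0.0603). The HSPB8 call ended without TGFB1 and celastrol replicate 2 (0.0936), celastrol replicate 2 (0.0656) and vehicle replicate 1 (0.0547) or 2 (0.0662). The HSPB7 call ended without either replicate of TGFB1 and celastrol (0.0783 and 0.177) or of celastrol alone (0.0890 and 0.167), without TGFB1 replicate 2 (0.103) and without vehicle replicate 2 (0.140), while HSPB1 gained one without celastrol replicate 1 (0.0295) or TGFB1 replicate 1 (0.0368). Scaling to a common total shifted the median of all genes by 0.22 in the interaction and left 0 members lower. The share of all interaction calls that were higher was 38.7% as deposited, 75.5% with a common total and 22.2% with median centring.

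**Figure D4:**
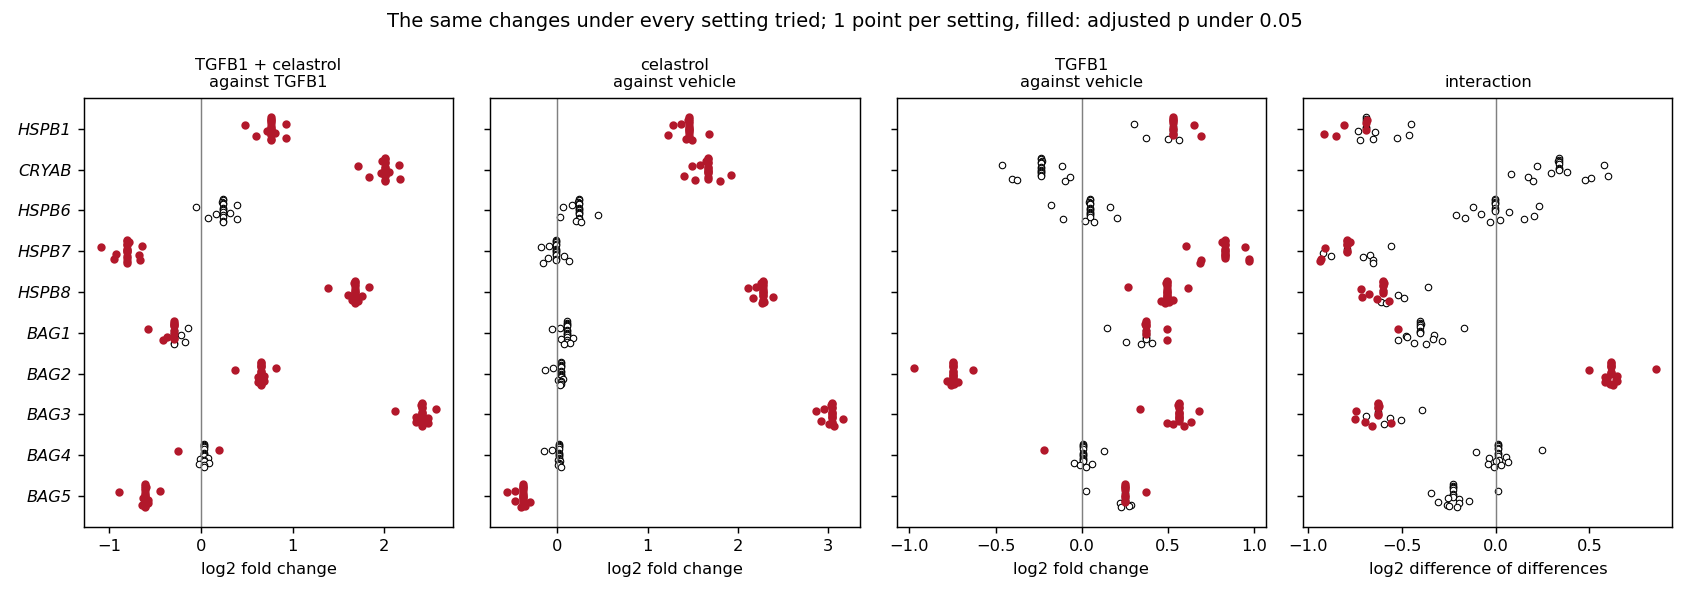
Log2 differences of the 10 members as reported and under each alternative setting (1 point per setting), with panels for 3 pairwise comparisons and the interaction; filled points passed an adjusted p of 0.05 under that setting. With celastrol, BAG3, HSPB8, CRYAB and HSPB1 stay to the right of 0 under every setting shown, and BAG4 moves to either side of 0 with the scaling.

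To set levels of different genes side by side, normalized reads were divided by the length of each gene's principal transcript in GENCODE release 29. On this per-kilobase scale HSPB1 was the highest member in every group, at 5794 with TGFB1 and celastrol, 6547 with celastrol alone, 3430 with TGFB1 alone and 2359 with vehicle. BAG3 followed in the groups with celastrol, at 3617 with TGFB1 and celastrol and 3798 with celastrol alone, against 681 with TGFB1 alone and 460 with vehicle. CRYAB (1340 and 1268) and HSPB8 (1131 and 1219) came next with TGFB1 and celastrol and with celastrol alone, and their library ranges overlapped with celastrol alone but not with TGFB1 and celastrol. HSPB7 was lowest in all groups but TGFB1 alone, where HSPB6 was. The order depends on the length used: with the union of all exons BAG3 exceeded HSPB1 with TGFB1 and celastrol, and BAG1 dropped to the lowest ranks because its union is 7.073 kb against a principal transcript of 1.038 kb. With the union HSPB8 exceeded CRYAB, at 851 against 494 with TGFB1 and celastrol and 917 against 468 with celastrol alone.

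Related genes were counted in lists of partners and regulators, to be read beside 37.5% of all genes tested higher and 25.9% lower for celastrol in TGFB1-treated cells. Of the 3 other genes measured from the small heat shock protein list, HSPB2 (log2 difference 1.62, adjusted p = 0.00217) and HSPB3 (0.94, adjusted p = 0.00145) rose with celastrol in TGFB1-treated cells. HSPB11 was lower (-0.30, adjusted p = 0.0455) but was not called with a common total. HSPB2 shares exon bases with CRYAB, and their reads cannot be told apart. Against vehicle HSPB2 was not called (0.44, adjusted p = 0.274). Of 9 other HSP70 nucleotide exchange factors, 3 were higher and 4 lower: HSPA4L (6.09) and HSPH1 (2.93), of the HSP110 family, were among the higher, and HYOU1 (-0.84), its endoplasmic reticulum relative, among the lower. Of 10 HSP70 partners, 7 were higher and 2 lower, and the smallest p-values were those of HSPA1B (6.82) and HSPA1A (6.54), whose near-identical sequences can share reads, and DNAJB1 (5.16). HSPA6, an inducible HSP70 chosen for mention after its values were seen, had the largest fitted log2 difference of the list; it had 76030.3 and 77777 normalized reads with TGFB1 and celastrol, against 0 and 14.9 with TGFB1 alone, so that its fold depends on the pseudocount. Of the 12 genes of the BAG3 and HSPB8 degradation route, 5 were higher and 4 lower, shares close to those over all genes. Its 3 smallest p-values were those of DNAJB6 (1.15), a co-chaperone of this complex, MAP1LC3B (0.73), the autophagosome protein LC3, and VPS18 (-0.94), a vacuolar sorting subunit. Of 7 partners of other BAG proteins, 2 were higher, BCL2 (1.34) and LRRK2 (1.26), and 3 lower, among them GAK (-0.51). Against vehicle, celastrol gave 1 higher and 1 lower of the other genes on the small heat shock protein list. The counts were 4 and 1 for the exchange factors, 8 and 1 for the HSP70 partners, and 5 and 4 for the degradation route. For the other BAG partners they were 2 and 1. All are to be read beside 33.8% higher and 21.3% lower over all genes tested. STUB1 and HSPA8 belong to more than 1 list.

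Among the 4 genes of the heat shock factor list, celastrol in TGFB1-treated cells lowered HSF1 (log2 difference -0.61, adjusted p = 0.00046) and raised HSF2 (0.69, adjusted p = 0.00325). It also lowered HSBP1 (-0.28, adjusted p = 0.0107), an HSF1-binding protein whose call was lost with a common total. Of 6 kinases that phosphorylate small heat shock proteins or act just above them, 2 were higher and 3 lower: PRKD1 rose by 0.82, and MAPKAPK5 (-0.66) and MAPK14 (-0.44), which is p38 alpha, fell. Scaling shifted the median of all genes in this comparison by 0.16 with a common total and by -0.29 with median centring, and the share of all calls that were higher was 59.1% as deposited, 70.1% with a common total and 43.3% with median centring. The degradation route read 7 higher and 2 lower with a common total but 3 and 7 with median centring. The HSP70 partners read 7 and 1, and 6 and 2. Against vehicle, the heat shock factor list read 1 higher (HSF4) and 0 lower, and HSF1 was not called (-0.22, adjusted p = 0.0659). The kinase list read 3 and 2 there, beside 33.8% higher and 21.3% lower over all genes tested. MAPKAPK2 was lower with celastrol in TGFB1-treated cells (-0.16, adjusted p = 0.0332) but higher against vehicle (0.21, adjusted p = 0.0125). Both differences are near the size of scaling shifts, 0.16 with a common total in TGFB1-treated cells and -0.17 with median centring against vehicle. Against vehicle the kinase list read 1 higher and 2 lower with either rescaling. In TGFB1-treated cells it read 2 and 2 with a common total, and 1 and 4 with median centring.

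Profiles were compared by Euclidean distance over the 8 libraries, on log2 values set to 0 at the vehicle mean, among the 12249 genes left after requiring a mean of 50 normalized reads and an ordinary gene name. Nearest to BAG3 was CHORDC1, an HSP90 co-chaperone, at a distance of 0.418, followed by TMC6, TSPYL2, KCNMB4 and BCL2L11 at up to 0.590. Nearest to HSPB8 were CPEB3 (0.357), SLC25A17, PIM1, RLF and EIF1AD. For HSPB1 they were TLR4 (0.358), MAFG, UBAP1, IRX2 and LIMK2, and for CRYAB they were MSH4 (0.481), ADGRL1, MUC20, CFAP69 and THAP2. Between members, BAG1 and BAG4 lay closest (0.606) and BAG3 and BAG5 farthest apart (6.77), while the partners BAG3 and HSPB8 were 1.56 apart and HSPB1 and CRYAB 1.32. These distances describe the 8 libraries and carry no test.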

How the data were processed

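RNA was extracted with TRIzol and total RNA libraries were made with a VAHTS kit, per the labels' protocols. The submitters' processing notes name Partek 10.0.22, STAR 2.7.3a, DESeq2 and build hg38; the role of each tool, the counting rule and its use of strand are not given there or in the labels. The deposited signal is read from its values as estimated reads divided by 1 size factor per library. The median gene's ratio to its geometric mean was the same in each library (1.0077), and 74.5% to 75.8% of values below 200 reads were whole multiples of a step, within 0.02 reads. As the rest were fractional, no count model was fitted. Every gene in the table reached at least 11.0 estimated reads in some library. A count of 0 allows up to 3 reads, or 1.80 to 4.24 normalized reads, for counting error only.

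Genes reaching 10 normalized reads in 2 or more libraries (22866) were fitted with limma 3.58.1 in R 4.3.3 on log2(value + 1), which understates the change of low genes, with 1 mean per group over all 8 libraries, a variance trend, 4 residual degrees of freedom, two-sided tests and Benjamini-Hochberg adjustment within each of 5 comparisons. All adjusted p-values are from limma. Replicates of each group differed by more than sampling noise. Alternatives were the pseudocount, the filter, the scaling, the variance model, the libraries fitted, a replicate block and leaving out each library. Every member is named, as are up to 3 genes per related list with the smallest p for celastrol in TGFB1-treated cells, and the 5 nearest profiles of 4 members. The members and lists were chosen with earlier results of these data known.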

Additional observations from a re-analysis of the deposited data

Results flagged for a closer look

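The celastrol difference itself differed between cells with and without TGFB1 for 4 members, by the limma interaction test. For BAG2, the CHIP inhibitor, the log2 difference was larger with TGFB1 by 0.62 (adjusted p = 0.00194), and the call was kept in all 17 alternatives. For BAG3 it was smaller with TGFB1 (-0.63, adjusted p = 0.0163), as it was for its partner HSPB8 (-0.60, adjusted p = 0.018). For HSPB7, celastrol lowered the level in TGFB1-treated cells while the libraries without TGFB1 overlapped (-0.80, adjusted p = 0.0451). The calls of BAG3, HSPB8 and HSPB7 were lost in 6, 6 and 8 of the 17 alternatives.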

How the results depend on the processing

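Of 890 single-gene values under the alternatives, 826 stayed on their side of the threshold, 54 lost the call, 8 gained one and 2 reversed. Of the 826, 789 kept their sign and 37 changed it, none of them called in either fit. The calls of celastrol against vehicle (HSPB1, CRYAB, HSPB8, BAG3 and BAG5) and of celastrol in TGFB1-treated cells, other than that of BAG1, were kept in all 18. Both reversals were of BAG4: -0.22 for TGFB1 against vehicle with a common total, and -0.26 for TGFB1 and celastrol against TGFB1 with median centring.

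The members higher with TGFB1 against vehicle, 6 as deposited, were 3 with a common total, 3 without a variance trend and 2 when only the libraries compared were fitted, and the members lower, 1 as deposited, were 2 with a common total. The members lower in the interaction, 3 as deposited, were 0 with a common total, 5 with median centring and 0 without a variance trend. Leaving out each library in turn gave 3 to 5 members higher with TGFB1 and 0 to 4 lower in the interaction; a group left with 1 library was assumed to vary like the others. The cause was not tested. Over all genes, 5364 were called with TGFB1 against vehicle, but 1684 when only those libraries were fitted, and 3311 or 3248 without vehicle replicate 1 or 2. The interaction called 2573 genes, but 1245 without a variance trend, 1397 or 1189 without TGFB1 and celastrol replicate 1 or 2, 1599 or 1313 without celastrol replicate 1 or 2, and 1624 or 1487 without vehicle replicate 1 or 2.

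Same-numbered libraries deviated together, with correlations of 0.171 to 0.233 across 14739 genes, but with 2 numbers per group, and celastrol replicate 2 numbered 3 in another label, the pairing was not established. With the replicate number as a block, member calls in the 4 pairwise comparisons had the same counts, the interaction had 4 lower in place of 3, with HSPB1 at an adjusted p of 0.017, and 3665 genes were called in the interaction in place of 2573. Depth limits HSPB6 most, at 147.0 estimated reads in its lowest library.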
